A study of Mus musculus with 20 samples.

Results

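The genes described here are 50 genes of mitosis and the spindle, picked by symbol for what their proteins do. Earlier results of these data were known when they were picked, so no test of the list as a set was made. All 50 were listed in each of 4 tables of gene expression in cultured mouse cortical neurons, among 13688 genes that the tables share and between 14152 and 14375 genes in single tables. They were sorted into 9 roles, from the kinases and cyclins that start mitosis to the proteins that separate the daughter cells.

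Mitosis begins when a cyclin-dependent kinase bound to a mitotic cyclin drives the chromosomes to condense and the spindle to form. Kinetochores, built on centromeres, hold the chromosomes to spindle microtubules, and a checkpoint restrains the anaphase-promoting complex until every chromosome is attached. Most of these genes are transcribed in late cell cycle phases and are low in resting cells, so in cortical cultures their RNA is usually taken to come from dividing progenitors and glia and not from neurons, which do not divide.

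The cultures were primary cortical neurons of mouse embryos at embryonic day 15, grown for 7 days. All samples, wild type (WT) ones included, carry the strain label C57BL/6N-Cdr1asem1Nikr, and the labels set WT cultures against cultures with a knockout (KO) of ciRS-7, a circular RNA whose gene is listed as Cdr1as. For 12 h the medium held 25 mM glucose and 0.2 mM pyruvate in the incubator (normoxia, N), or neither supplement at 1% oxygen (oxygen and glucose deprivation, OGD), a culture model of ischemia. Each of the resulting groups (N_WT, N_KO, OGD_WT, OGD_KO) had 5 libraries of total RNA, and 1 N and 1 OGD library shared each culture label (WT1 to WT5 and KO1 to KO5) and its batch label. Whether a culture pooled embryos, and how many knockout founders there were, is not given in the sources used here.

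Levels are given as log2 CPM, the logarithm of the reads of a gene relative to a size set for its library, which in the deposited values was not its read total. The deposited values of a gene's outermost libraries in a group appear, from whole-read steps in the values, to have been drawn inward, and this was undone. Summed recovered reads ranged from 7071506 to 16658618 per library. In OGD_KO against N_KO, OGD_KO replicate 5 had 7496145 recovered reads and 5.94 reads per CPM. There N_KO replicate 3 had 7582101 reads and 8.41 reads per CPM, so the sizes did not follow the totals. Cdr1as, the knocked-out gene, had 545 to 1912 reads in WT libraries and 2 to 16 in KO libraries. The mitochondrial ribosomal RNA mt-Rnr2 took 10.1% to 16.5% of the reads of N libraries and 13.8% to 32.0% of those of OGD libraries. With library totals as size, the median log2 fold change of all genes moved from -0.03 to -0.30 in WT and from 0.00 to -0.28 in KO. The libraries of replicate 3 stood apart in another way. Among genes above a mean level of 1 log2 CPM, each was the lowest or highest of its group in only 4.72% to 11.8% of genes, and those of replicate 1 in 15.8% to 18.9%, against 53.7% to 61.6% for replicates 2, 4 and 5, where an equal share would be 40%. WT3 and KO3 are each the only culture of their batch label (3.2 and 2). Libraries this close to their group's mean narrow the spread on which the tests rest, so counts are also given without them.

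Under OGD the mitotic genes were higher together in both genotypes. In OGD_WT against N_WT, 47 of 50 rose and 0 fell, where 21.6% of the 14235 genes tested rose and 22.8% fell, and in OGD_KO against N_KO 48 of 50 rose and 0 fell, where 21.0% of 14375 genes rose and 19.9% fell (limma, adjusted p under 0.05 over all genes). The median log2 fold change of the 50 genes was 1.01 in WT and 1.10 in KO, beside -0.03 and 0.00 over all genes. In the same 2 comparisons 4.66% and 3.53% of all genes had a larger log2 fold change than these medians. In bulk RNA, fewer cells of one type and less RNA per cell cannot be told apart.

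The rise was at least 2-fold in 27 genes in WT and 31 in KO, where 4.76% and 4.78% of all genes rose by that much. In WT, 42 of the 50 genes were higher in the OGD library of all 5 cultures, against 20.9% of all genes, and in 39 genes every OGD library lay above every N library, against 13.9%. In KO these counts were 45 genes, against 19.8%, and 38 genes, against 13.4%. Without replicate 3, 45 of 50 genes rose in WT (14.9% of all genes) and 45 in KO (14.3%). With replicates 2, 4 and 5 alone, 39 rose in WT (8.01% of all genes) and 35 in KO (8.28%), with medians of 1.00 and 0.97. The 8 genes that lost their call in WT were Birc5, Bub3, Ckap2l, Kif15, Knl1, Ncaph, Nusap1 and Racgap1. The 13 in KO were Birc5, Bub3, Cdk1, Ckap2l, Hmmr, Kif15, Kif2c, Kif4, Knl1, Mad2l1, Ncaph, Nuf2 and Spc25. Within the cultures of batches 3.1 to 3.3, which are WT2 to WT5 and KO2, KO4 and KO5, 46 rose in WT (16.8% of all genes) and 35 in KO (8.28%). With library totals as size, 43 of 50 rose in each genotype (11.4% of all genes in WT and 10.3% in KO), with medians of 0.75 and 0.82, and the split of all called genes moved to 1625 higher and 5744 lower in WT and to 1479 higher and 5289 lower in KO.

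Averaged over the 50 genes, the level in N_WT replicates 1 to 5 was 4.32, 4.26, 4.10, 3.95 and 4.17 log2 CPM, and in OGD_WT it was 5.32, 5.47, 5.18, 5.17 and 4.86. In N_KO the averages were 3.93, 4.31, 4.03, 4.32 and 3.98, and in OGD_KO they were 5.09, 5.26, 5.35, 5.17 and 5.14. The OGD libraries lay above the N libraries in both genotypes with no overlap. The median gene rose from N to OGD by 0.98, 1.26, 1.09, 1.27 and 0.70 log2 units in cultures WT1 to WT5, and by 1.15, 0.97, 1.32, 0.77 and 1.22 in KO1 to KO5. WT5 showed the smallest difference, with 43 of 50 genes above 0, and the other 9 cultures had between 47 and 50 genes above 0. In unlogged terms the 50 genes summed to 1250.3 to 1657 CPM in N_WT libraries and 2413 to 4079 CPM in OGD_WT libraries, and to 1211 to 1836 CPM in N_KO and 2878 to 3588 CPM in OGD_KO.

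**Figure D1:**
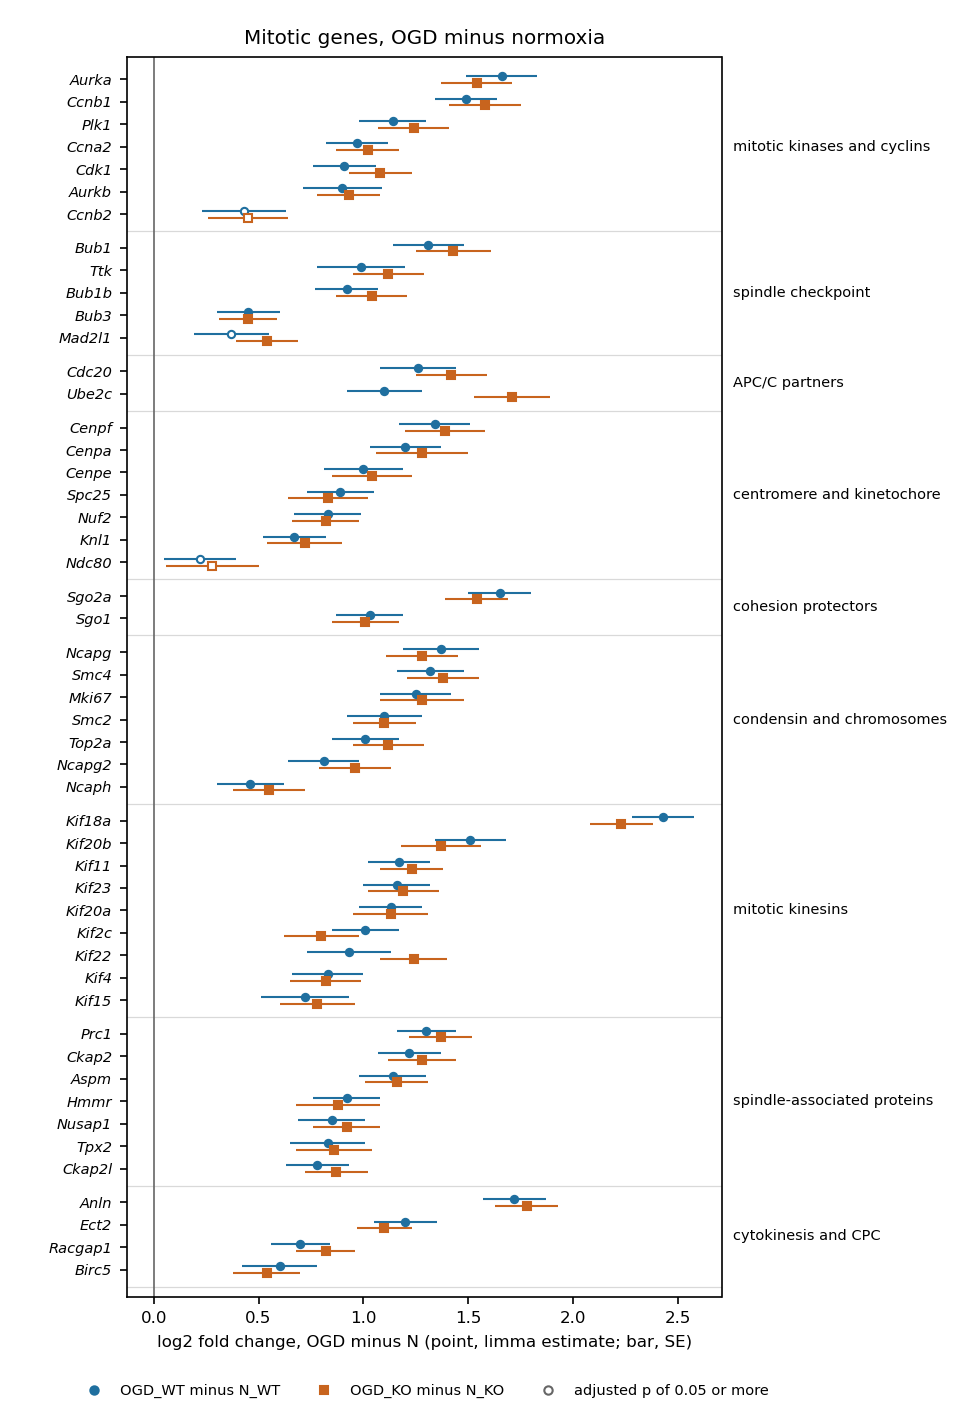
Log2 fold change of OGD against N for each of the 50 genes, grouped by role, in WT (circles) and KO (squares). Points are limma estimates, bars are standard errors, and open points have an adjusted p of 0.05 or more. All 100 estimates lie above 0, from 0.22 for Ndc80 to 2.43 for Kif18a, both in WT.

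Genes of this kind often share 2 short promoter elements, the cell cycle genes homology region (CHR), written TTTGAA with the variant TTTAAA, and the CCAAT box, which are bound by MuvB complexes and by NF-Y. RefSeq promoter windows of mouse build GRCm38.p6, from 250 bases before to 50 after a start site, were given for 45 of the 50 genes (49 windows) and were searched on both strands. TTTGAA was present in 75.5% of these windows, against 11.6% of the 12771 windows of genes in all 4 tables, and CCAAT in 73.5% against 38%. TTTAAA, which reads the same on both strands, was in 20.4% against 9.19%, and 61.2% of windows held the form TTTGAA as well as a CCAAT box, against 4.95%. By gene, 27 of the 45 held both TTTGAA and CCAAT. Kif18a, Nuf2, Ncaph, Nusap1 and Mad2l1 had a window with neither CHR form and no CCAAT box, which says only that these letters are not in it. The windows of the 4 genes with the highest level in N_WT among those with both elements are shown as examples of their spacing; capitals mark both CHR forms and the CCAAT box on either strand. Mki67 and Top2a encode the proliferation antigen Ki-67 and topoisomerase II alpha, and Cenpf and Aspm encode a kinetochore and a spindle pole protein. The windows are those of Mki67 at chr7:135716330-135716629 (minus strand), Top2a at chr11:99024140-99024439 (minus strand), Cenpf at chr1:189688037-189688336 (minus strand) and Aspm at chr1:139454523-139454822 (plus strand), each written 5′ to 3′ along the gene.
Mki67: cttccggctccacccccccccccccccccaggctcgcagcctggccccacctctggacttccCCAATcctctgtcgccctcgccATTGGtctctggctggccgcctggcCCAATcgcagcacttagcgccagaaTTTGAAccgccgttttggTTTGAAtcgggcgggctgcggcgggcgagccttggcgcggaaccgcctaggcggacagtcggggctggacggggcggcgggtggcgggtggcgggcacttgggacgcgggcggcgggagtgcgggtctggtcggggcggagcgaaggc
Top2a: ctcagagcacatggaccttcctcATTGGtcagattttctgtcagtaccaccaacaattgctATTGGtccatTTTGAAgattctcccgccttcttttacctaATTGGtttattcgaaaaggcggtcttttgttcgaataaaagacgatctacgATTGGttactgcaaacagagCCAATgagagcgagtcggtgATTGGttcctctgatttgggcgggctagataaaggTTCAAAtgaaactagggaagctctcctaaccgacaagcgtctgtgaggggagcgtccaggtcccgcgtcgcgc
Cenpf: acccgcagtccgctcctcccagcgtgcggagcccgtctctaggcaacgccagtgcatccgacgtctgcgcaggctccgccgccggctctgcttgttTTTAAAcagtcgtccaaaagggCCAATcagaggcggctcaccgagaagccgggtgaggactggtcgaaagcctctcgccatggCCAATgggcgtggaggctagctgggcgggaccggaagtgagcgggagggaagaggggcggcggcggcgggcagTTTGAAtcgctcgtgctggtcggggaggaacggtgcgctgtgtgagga
Aspm: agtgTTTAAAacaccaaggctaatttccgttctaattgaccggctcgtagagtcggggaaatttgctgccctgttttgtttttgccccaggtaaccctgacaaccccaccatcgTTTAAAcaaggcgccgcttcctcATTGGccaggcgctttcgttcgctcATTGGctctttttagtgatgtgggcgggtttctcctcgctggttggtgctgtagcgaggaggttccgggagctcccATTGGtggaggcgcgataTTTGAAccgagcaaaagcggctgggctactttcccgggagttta

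In Mki67 the TTTGAA copies began 116 and 98 bases before the start site, below CCAAT boxes that began 188, 166 and 141 bases before it. Top2a held 6 CCAAT boxes, between 227 and 58 bases before the start, and TTTGAA copies 179 and 23 bases before it. Cenpf and Aspm carried TTTGAA 2 and 6 bases after the start and CCAAT boxes 132 and 71, and 113, 88 and 12 bases before it. Over all 49 windows a CHR element most often began in the first 25 bases after the start site, in 32.7% of windows against 1.23% of the windows of genes in all tables. CCAAT boxes were most frequent 75 to 50 and 25 to 0 bases before the start, in 28.6% of windows each, against 9.16% and 4.53%. These are letter matches in a fixed window and were not tested against the change of the genes.

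**Figure D2:**
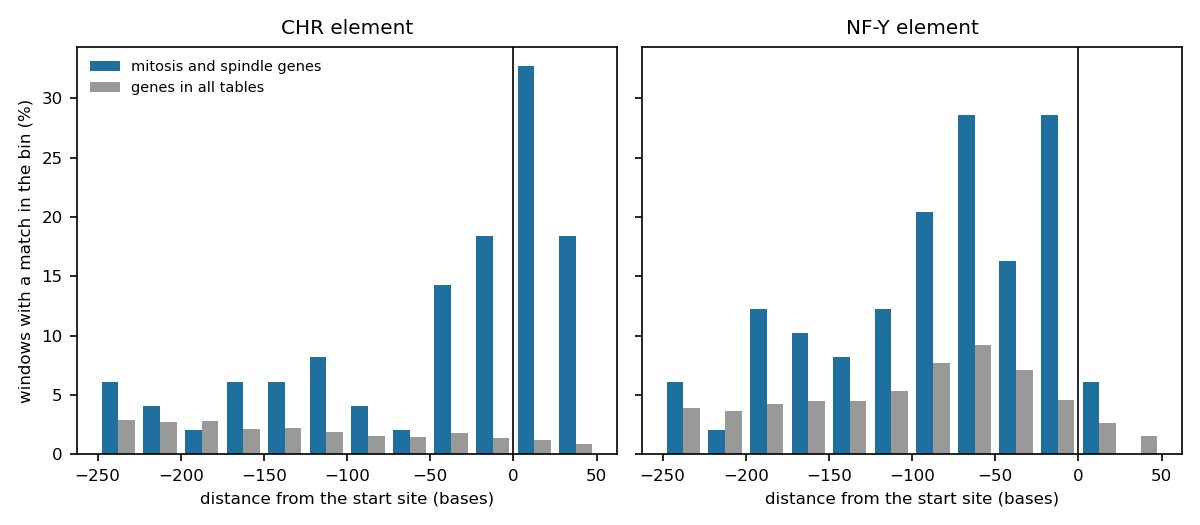
Share of promoter windows with a CHR element (left) or a CCAAT box (right, labelled as the NF-Y element) whose first base lies in each bin of 25 bases, by distance from the start site. Blue bars are the 49 windows of the mitosis and spindle genes and grey bars the 12771 windows of genes in all tables. The CHR bars of the mitotic genes reach 32.7% just after the start site.

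The kinases and cyclins that start and drive mitosis rose in 6 of 7 cases in each genotype. Ccna2, cyclin A2, which acts in S phase and early mitosis, was at 5.15, 5.19, 5.02, 4.65 and 5.30 log2 CPM in N_WT replicates 1 to 5 and at 6.01, 6.33, 6.05, 5.96 and 5.82 in OGD_WT. In N_KO it was at 4.98, 5.47, 4.94, 4.87 and 4.97, and in OGD_KO at 6.07, 5.72, 6.16, 6.14 and 6.25. Every OGD library lay above every N library, although the second KO culture started high and gained only 0.25, and the log2 fold changes were 0.97 (SE 0.15, adjusted p = 3.03e-05) in WT and 1.02 (SE 0.15, adjusted p = 4.25e-05) in KO. Ccnb1, cyclin B1, the partner of Cdk1 at mitotic entry, stood at 3.98, 4.12, 3.83, 3.60 and 3.66 in N_WT and 5.31, 5.63, 5.27, 5.24 and 5.17 in OGD_WT. The KO values of Ccnb1 were 3.77, 4.47, 3.66, 3.67 and 3.65 in N_KO and 5.41, 5.51, 5.61, 5.21 and 5.38 in OGD_KO. Here too the groups did not overlap, with a rise of 1.49 (SE 0.15, adjusted p = 1.27e-07) in WT and 1.58 (SE 0.17, adjusted p = 1.03e-06) in KO.

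Aurka, Aurora A kinase, which matures the spindle poles, was among the 3 largest rises in WT. Its N_WT libraries held 2.73, 2.47, 2.48, 2.24 and 1.84 and its OGD_WT libraries 3.96, 4.35, 3.85, 3.79 and 4.13. In KO cultures the values of Aurka were 2.22, 2.51, 2.08, 2.92 and 2.42 in N_KO and 3.86, 4.06, 4.21, 3.63 and 4.08 in OGD_KO. The lowest OGD library exceeded the highest N library by over 0.7 log2 units in each genotype, and the log2 fold changes were 1.66 (SE 0.17, adjusted p = 2.20e-07) and 1.54 (SE 0.17, adjusted p = 2.12e-06). Plk1, polo-like kinase 1, rose by 1.14 in WT and 1.24 in KO, Cdk1 by 0.91 and 1.08, and Aurkb, the kinase of the chromosomal passenger complex, by 0.90 and 0.93, all without overlap of the groups. Ccnb2, cyclin B2, was the exception. It was at 1.80, 1.08, 1.33, 1.19 and 1.25 in N_WT and 1.74, 1.56, 1.81, 1.37 and 2.31 in OGD_WT, and at 1.51, 1.69, 1.49, 1.32 and 1.88 in N_KO and 1.66, 1.80, 2.14, 1.95 and 2.58 in OGD_KO. These groups overlapped, and its log2 fold changes of 0.43 (SE 0.20, adjusted p = 0.0837) and 0.45 (SE 0.19, adjusted p = 0.0636) did not pass the test. Still, 4 of 5 WT and 5 of 5 KO cultures were higher under OGD. The rise of Ccnb2 passed the test in WT without OGD_WT replicate 4 (adjusted p = 0.0389) or N_WT replicate 1 (adjusted p = 0.0391). In KO it passed without OGD_KO replicate 1 (adjusted p = 0.0398) or N_KO replicate 5 (adjusted p = 0.0442). Ccnb2 had the lowest mean level of the 24 genes given in every library, 1.65 log2 CPM, with 15 to 55 reads per library.

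Spindle checkpoint genes rose in 4 of 5 cases in WT and in 5 of 5 in KO, but by very different amounts. Bub1b encodes BubR1, a part of the complex that inhibits the anaphase-promoting complex. It was at 4.11, 4.03, 4.0, 4.03 and 4.13 in N_WT and 5.18, 5.30, 5.00, 4.67 and 4.76 in OGD_WT, and at 3.68, 4.39, 3.72, 3.79 and 3.77 in N_KO and 4.83, 5.09, 5.05, 4.46 and 5.13 in OGD_KO. The N_WT libraries lay within 0.13 of each other and below every OGD_WT library, and the rise was 0.92 (SE 0.15, adjusted p = 3.84e-05) in WT and 1.04 (SE 0.17, adjusted p = 9.81e-05) in KO. Bub3 encodes the BubR1 partner that also serves other pathways. Its values were 4.59, 4.45, 4.51, 4.22 and 4.40 in N_WT and 4.71, 5.36, 4.76, 4.86 and 4.76 in OGD_WT, with 4.42, 4.46, 4.36, 4.60 and 4.25 in N_KO and 4.88, 4.61, 4.93, 5.11 and 4.78 in OGD_KO. The OGD libraries lay above the N libraries by little, 0.12 in WT between the nearest ones, and the log2 fold changes were 0.45 (SE 0.15, adjusted p = 0.0185) and 0.45 (SE 0.14, adjusted p = 0.0145). Without replicate 3 or with library totals as size, the rise of Bub3 did not pass the test in either genotype. Nor did it pass in replicates 2, 4 and 5 alone in either genotype, or in KO with batch as a covariate.

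Mad2l1, which encodes the checkpoint protein Mad2, was at 2.18, 2.19, 2.26, 2.06 and 2.47 in N_WT and 2.71, 2.19, 2.56, 3.14 and 2.43 in OGD_WT. In N_KO its values were 2.05, 2.24, 2.08, 1.78 and 2.04, and in OGD_KO 2.52, 2.63, 2.57, 2.49 and 2.70. The WT groups overlapped and 3 of 5 WT cultures were higher under OGD (log2 fold change 0.37, SE 0.18, adjusted p = 0.0922), whereas the KO groups did not overlap, with 0.54 (SE 0.15, adjusted p = 0.00635). The KO rise of Mad2l1 did not pass the test in replicates 2, 4 and 5 alone or with library totals as size. That the test was passed in 1 genotype does not show a difference between them, and the interaction of genotype and treatment for Mad2l1 was 0.17 (SE 0.25, adjusted p = 1). Bub1, the kinase that marks kinetochores for the checkpoint, rose by 1.31 (SE 0.17, adjusted p = 4.13e-06) in WT and 1.43 (SE 0.18, adjusted p = 9.09e-06) in KO, and Ttk, the Mps1 kinase, by 0.99 (SE 0.21, adjusted p = 0.00062) and 1.12 (SE 0.17, adjusted p = 4.14e-05).

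Both genes that act with the anaphase-promoting complex rose. Cdc20 encodes its activator, the target of the checkpoint, and was at 2.98, 2.77, 2.35, 2.27 and 2.86 in N_WT and 3.96, 4.21, 4.11, 3.73 and 3.51 in OGD_WT. Its KO values were 2.35, 2.97, 2.37, 2.19 and 2.53 in N_KO and 3.62, 4.16, 4.02, 3.65 and 4.10 in OGD_KO. All OGD libraries lay above all N libraries, and the rise was 1.26 (SE 0.18, adjusted p = 8.99e-06) in WT and 1.42 (SE 0.17, adjusted p = 4.60e-06) in KO. Ube2c encodes the ubiquitin-conjugating enzyme that works with the complex. It was at 1.80, 1.26, 1.68, 2.12 and 1.41 in N_WT and 2.82, 2.85, 2.74, 2.82 and 2.56 in OGD_WT, and at 1.42, 1.31, 0.89, 1.20 and 0.88 in N_KO and 2.36, 2.71, 3.03, 3.21 and 2.94 in OGD_KO. The rise was 1.10 (SE 0.18, adjusted p = 3.64e-05) in WT and 1.71 (SE 0.18, adjusted p = 1.44e-06) in KO, 1 of the 3 largest in KO. In the main fits neither the difference of Ube2c between N_KO and N_WT nor its interaction passed the test, as given below. Ube2c had 17 to 102 reads per library in WT and 12 to 107 in KO.

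At the centromere and kinetochore 6 of 7 genes rose in each genotype. Cenpf was at 6.47, 6.40, 6.12, 6.16 and 6.09 in N_WT and 7.88, 8.0, 7.55, 7.50 and 6.99 in OGD_WT, and at 5.82, 6.15, 6.26, 6.93 and 5.83 in N_KO and 7.32, 7.85, 7.73, 7.60 and 7.42 in OGD_KO. The OGD libraries were all above the N libraries, with the fifth WT culture gaining least, and the rise was 1.34 (SE 0.17, adjusted p = 2.96e-06) in WT and 1.39 (SE 0.19, adjusted p = 2.01e-05) in KO. Cenpe, a kinesin that carries chromosomes to the spindle equator, was at 5.47, 5.46, 5.11, 5.07 and 5.34 in N_WT and 6.62, 6.71, 6.32, 6.30 and 5.50 in OGD_WT. In KO it was at 4.81, 5.61, 5.33, 5.50 and 4.97 in N_KO and 6.09, 6.85, 6.40, 6.0 and 6.07 in OGD_KO. Its groups did not overlap, although OGD_WT replicate 5, at 5.50, lay just above the highest N_WT library at 5.47, and the rise was 1.00 (SE 0.19, adjusted p = 0.000195) and 1.04 (SE 0.19, adjusted p = 0.000247). Cenpa, the centromeric histone H3 variant, rose by 1.20 in WT and 1.28 in KO, and Knl1, the checkpoint scaffold of the outer kinetochore, by 0.67 and 0.72. The rise of Knl1 did not pass the test in replicates 2, 4 and 5 alone in either genotype, nor in KO with library totals as size.

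Of the 3 listed subunits of the NDC80 complex, which binds microtubule ends, Nuf2 and Spc25 passed the test in both genotypes and Ndc80 in neither. Nuf2 rose by 0.83 (SE 0.16, adjusted p = 0.00021) in WT and 0.82 (SE 0.16, adjusted p = 0.000412) in KO, and Spc25 by 0.89 (SE 0.16, adjusted p = 0.00015) and 0.83 (SE 0.19, adjusted p = 0.00195). Neither KO rise passed the test in replicates 2, 4 and 5 alone. Ndc80 itself was at 3.38, 3.01, 3.29, 3.64 and 3.28 in N_WT and 3.73, 3.88, 3.57, 3.57 and 2.97 in OGD_WT, and at 3.0, 3.68, 2.96, 3.14 and 3.57 in N_KO and 3.68, 3.83, 3.87, 3.74 and 2.62 in OGD_KO. Its groups overlapped widely, 3 of 5 WT and 4 of 5 KO cultures were higher under OGD, and the log2 fold changes of 0.22 (SE 0.17, adjusted p = 0.318) and 0.28 (SE 0.22, adjusted p = 0.329) did not pass the test. With library totals as size its estimates were -0.05 (SE 0.177) in WT and -0.01 (SE 0.251) in KO. In replicates 2, 4 and 5 alone the KO estimate was -0.07 (SE 0.304), so the sign for Ndc80 varied with the scale and the libraries used. No direction was established. Without OGD_KO replicate 5, the lowest of its group at 2.62, Ndc80 was called higher in KO, at 0.51 (SE 0.169, adjusted p = 0.0189). Ndc80 had 34 to 197 reads per library. Whether the difference between Ndc80 and its partners exceeds the spread was not tested.

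The shugoshins, which protect cohesion at centromeres until anaphase, both rose. Sgo2a was at 4.47, 4.46, 4.25, 4.19 and 4.09 in N_WT and 6.05, 6.27, 5.87, 5.79 and 5.72 in OGD_WT, and at 3.99, 4.47, 4.23, 4.64 and 4.27 in N_KO and 5.86, 6.06, 6.06, 5.71 and 5.60 in OGD_KO. The gap between the groups was over 0.9 log2 units in each genotype, and the rise was 1.65 (SE 0.15, adjusted p = 2.53e-08) in WT and 1.54 (SE 0.15, adjusted p = 5.42e-07) in KO. Sgo1 was at 3.02, 3.0, 2.89, 2.72 and 2.86 in N_WT and 3.92, 4.34, 3.90, 3.86 and 3.58 in OGD_WT, and at 2.77, 2.72, 2.62, 2.80 and 2.79 in N_KO and 3.64, 3.87, 3.93, 4.05 and 3.25 in OGD_KO. Its groups were apart too, with a rise of 1.03 (SE 0.16, adjusted p = 2.17e-05) in WT and 1.01 (SE 0.16, adjusted p = 7.01e-05) in KO.

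Condensin subunits and the genes of chromosome structure rose in 7 of 7 cases in each genotype. Mki67, whose protein coats mitotic chromosomes, was at 8.30, 8.26, 8.01, 7.99 and 8.09 in N_WT and 9.68, 9.80, 9.25, 9.33 and 8.83 in OGD_WT. In KO cultures Mki67 was at 7.70, 8.06, 8.16, 8.63 and 7.77 in N_KO and 9.07, 9.87, 9.56, 9.22 and 9.0 in OGD_KO. The OGD libraries lay above the N libraries in both genotypes, and the rise was 1.25 (SE 0.17, adjusted p = 7.21e-06) in WT and 1.28 (SE 0.20, adjusted p = 8.12e-05) in KO. Top2a, which untangles sister chromatids, was at 7.35, 7.28, 7.02, 6.83 and 7.24 in N_WT and 8.28, 8.47, 8.16, 8.08 and 7.78 in OGD_WT, and at 6.93, 7.40, 7.06, 7.41 and 6.87 in N_KO and 8.08, 7.86, 8.41, 8.51 and 8.40 in OGD_KO. Its rise was 1.01 (SE 0.16, adjusted p = 2.93e-05) in WT and 1.12 (SE 0.17, adjusted p = 4.92e-05) in KO, again without overlap. The core condensin ATPases Smc2 and Smc4 rose by 1.10 and 1.32 in WT and by 1.10 and 1.38 in KO. Among the non-SMC subunits, Ncapg of condensin I rose by 1.37 and 1.28 and Ncapg2 of condensin II by 0.81 and 0.96. Ncaph, also of condensin I, had the smallest rise of the role, 0.46 (SE 0.16, adjusted p = 0.027) in WT and 0.55 (SE 0.17, adjusted p = 0.0129) in KO, with overlapping groups. With the culture as a block or batch as a covariate, the rise of Ncaph in WT did not pass the test. It did not pass without replicate 3 or with library totals as size in either genotype.

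All 9 mitotic kinesins rose in both genotypes. Kif18a, which shortens kinetochore microtubules to align chromosomes, had the largest log2 fold change of the 50 genes in each. It was at 3.23, 3.72, 3.40, 2.95 and 3.32 in N_WT and 5.88, 5.84, 5.66, 5.79 and 5.61 in OGD_WT, and at 3.36, 3.24, 3.31, 3.45 and 3.43 in N_KO and 5.60, 6.0, 5.67, 5.27 and 5.40 in OGD_KO. The groups were almost 2 log2 units apart at their nearest libraries, and the rise was 2.43 (SE 0.15, adjusted p = 1.18e-10) in WT, a fold of 5.39, and 2.23 (SE 0.15, adjusted p = 7.91e-09) in KO, a fold of 4.69. By size it was at rank 53 of 14235 genes in WT and rank 67 of 14375 in KO. Per kilobase of its longest transcript, Kif18a went from 1.5 CPM ± 0.304 (SD, n = 5) in N_WT to 8.26 ± 0.671 in OGD_WT, from a level below most of the 50 genes to one in their middle range.

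Kif11, or Eg5, the motor that pushes spindle poles apart, was at 5.85, 6.0, 5.72, 5.43 and 5.89 in N_WT and 7.12, 7.21, 6.86, 6.96 and 6.57 in OGD_WT, and at 5.54, 5.96, 5.68, 6.02 and 5.48 in N_KO and 6.86, 6.85, 7.13, 7.05 and 6.95 in OGD_KO. Every OGD library was above every N library, with a rise of 1.17 (SE 0.15, adjusted p = 4.37e-06) in WT and 1.23 (SE 0.15, adjusted p = 4.01e-06) in KO. Kif20b, a motor of the midzone and midbody, was at 4.69, 4.58, 4.26, 4.05 and 4.10 in N_WT and 5.99, 6.19, 5.77, 5.91 and 5.35 in OGD_WT. Its values in KO were 4.02, 4.29, 4.38, 4.73 and 4.33 in N_KO and 5.46, 5.85, 5.91, 6.23 and 5.15 in OGD_KO. These groups were apart as well, and the rise was 1.51 (SE 0.17, adjusted p = 6.72e-07) in WT and 1.37 (SE 0.19, adjusted p = 1.67e-05) in KO. The other kinesins rose by 0.72 to 1.16 in WT and 0.78 to 1.24 in KO, with Kif15 lowest in both. In culture WT5 Kif15 was lower under OGD by 0.61 log2 units, and its rise did not pass the test in replicates 2, 4 and 5 alone in either genotype, nor in WT with library totals as size.

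Among spindle-associated proteins 7 of 7 genes rose in each genotype. Aspm, a spindle pole protein whose loss in humans causes small brain size, was at 6.27, 6.30, 6.05, 5.82 and 6.24 in N_WT and 7.41, 7.65, 7.18, 7.33 and 6.81 in OGD_WT. In the KO libraries it was at 5.87, 6.22, 6.08, 6.44 and 5.89 in N_KO and 7.17, 7.41, 7.46, 7.29 and 6.99 in OGD_KO. There was no overlap, and the rise was 1.14 (SE 0.16, adjusted p = 1.02e-05) in WT and 1.16 (SE 0.15, adjusted p = 1.12e-05) in KO. Prc1, which bundles antiparallel microtubules in the midzone, was at 5.45, 5.32, 5.24, 5.17 and 5.27 in N_WT and 6.64, 6.97, 6.53, 6.45 and 6.37 in OGD_WT, and at 5.20, 5.57, 5.26, 5.20 and 4.89 in N_KO and 6.41, 6.37, 6.66, 6.85 and 6.70 in OGD_KO. Its N_WT libraries lay within 0.28 of each other, and the rise was 1.30 (SE 0.14, adjusted p = 4.67e-07) and 1.37 (SE 0.15, adjusted p = 2.06e-06). Ckap2 rose by 1.22 in WT and 1.28 in KO, and Tpx2, the activator of Aurora A, by 0.83 and 0.86. Hmmr, Nusap1 and Ckap2l rose by 0.92, 0.85 and 0.78 in WT and by 0.88, 0.92 and 0.87 in KO.

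The cytokinesis genes and Birc5 rose in 4 of 4 cases in each genotype. Anln, anillin, the scaffold of the contractile ring, was at 3.43, 3.64, 3.26, 3.05 and 3.27 in N_WT and 5.14, 5.27, 5.03, 5.02 and 4.78 in OGD_WT, and at 2.97, 3.28, 3.09, 3.29 and 3.06 in N_KO and 4.89, 5.26, 5.06, 4.68 and 4.71 in OGD_KO. The groups were over 1.1 log2 units apart at their nearest libraries, and the rise of 1.72 (SE 0.15, adjusted p = 1.74e-08) in WT and 1.78 (SE 0.15, adjusted p = 6.66e-08) in KO was the second largest of the 50 genes in each genotype. Ect2, the exchange factor that activates RhoA at the cell equator, was at 3.96, 4.20, 3.85, 3.72 and 3.67 in N_WT and 5.10, 5.32, 5.04, 4.96 and 4.96 in OGD_WT. Its KO values were 3.79, 3.98, 3.82, 3.92 and 3.65 in N_KO and 4.89, 4.94, 5.00, 5.00 and 4.81 in OGD_KO. They did not overlap, and the rise was 1.20 (SE 0.15, adjusted p = 1.52e-06) in WT and 1.10 (SE 0.13, adjusted p = 4.11e-06) in KO. Racgap1, a subunit of centralspindlin, was at 5.54, 5.39, 5.37, 5.20 and 5.55 in N_WT and 6.13, 6.46, 6.11, 5.88 and 5.99 in OGD_WT, and at 5.27, 5.39, 5.33, 5.51 and 5.15 in N_KO and 6.04, 5.89, 6.15, 6.18 and 6.46 in OGD_KO. Racgap1 rose less, by 0.70 (SE 0.14, adjusted p = 0.000495) in WT and 0.82 (SE 0.14, adjusted p = 0.000173) in KO, still without overlap, while its centralspindlin partner Kif23 rose by 1.16 and 1.19. Birc5, survivin, of the chromosomal passenger complex, rose by 0.60 (SE 0.18, adjusted p = 0.00881) in WT and 0.54 (SE 0.16, adjusted p = 0.0119) in KO with overlapping groups, and its rise did not pass the test with library totals as size in either genotype or without replicate 3 in KO, nor in replicates 2, 4 and 5 alone in either.

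**Figure D3:**
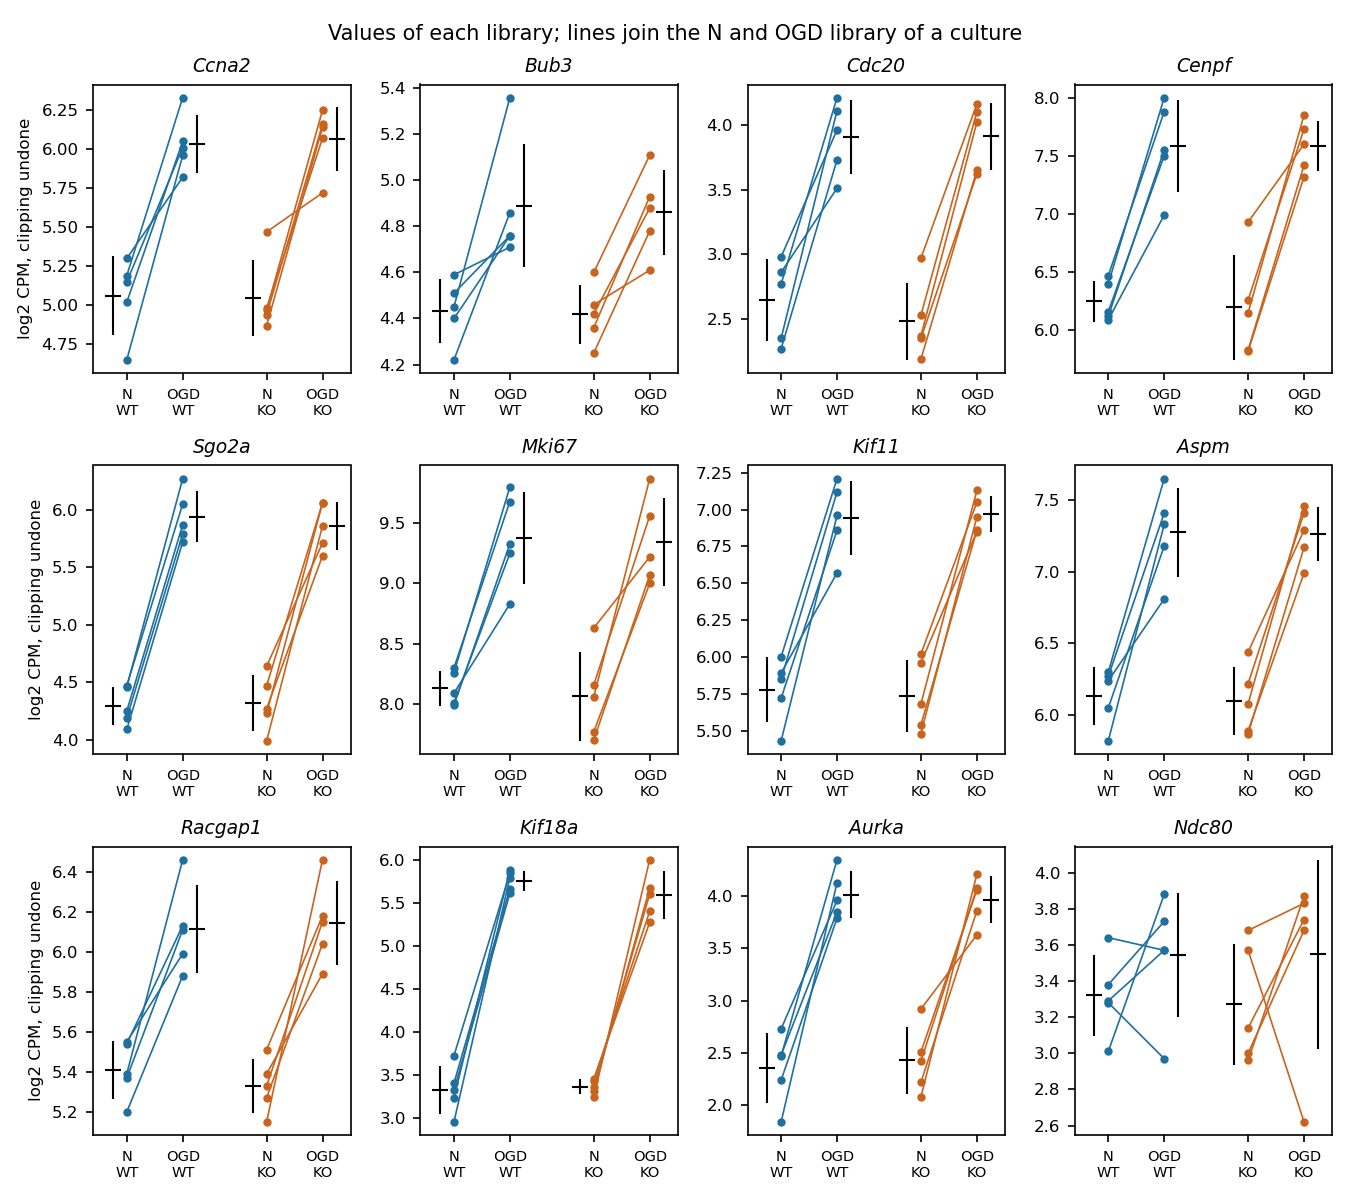
Log2 CPM of each library for 12 genes, the highest of each role and Kif18a, Aurka and Ndc80, with lines joining the N and OGD library of a culture (WT blue, KO orange). Black marks are group means and bars are SDs (n = 5). The OGD libraries lie above the N libraries in every panel but that of Ndc80, where the groups overlap.

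Compared per kilobase of the longest transcript, the highest of the 50 genes in N_WT were Mki67 at 27.9 CPM ± 2.79 (SD, n = 5), Top2a at 27.3 ± 3.93 and Smc4 at 20.2 ± 3.03, and the lowest was Mad2l1 at 0.570 ± 0.0677. Mki67 and Top2a did not differ beyond their spread in N_WT. In OGD_WT the same genes were at 67.9 ± 17.3, 55.1 ± 9.46, 50.9 ± 10.1 and 0.771 ± 0.214. Transcript length is taken from the annotation and not from the isoforms expressed here.

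The changes in WT and KO were compared gene by gene. Across the 50 genes the log2 fold changes in WT and KO had a Pearson r of 0.95 and a Spearman rho of 0.94, given as a description over genes, which share libraries and depth and are not independent replicates. In 47 genes the estimates differed by less than 0.2, and in 34 the KO estimate was the larger. That tilt depended on the libraries used. In the interaction of genotype and treatment, 33 of the 50 estimates were above 0, the side of a larger KO change. Without replicate 3 there were 18, and with replicates 2, 4 and 5 alone 12. Between genotypes 0 of the 50 genes passed the test. In N_KO against N_WT 0 of 50 genes were called, beside 5 of 14152 genes (0.0353%), and 25 of the 50 estimates were above 0, with a median of 0.00. In OGD_KO against OGD_WT 0 of 50 were called, beside 4 of 14185 genes (0.0282%), and 31 estimates were above 0, with a median of 0.02. The smallest adjusted p among the 50 genes was 1 in each comparison (limma). In normoxia 1 of the 50 genes (Ube2c) had an unadjusted p under 0.05, beside 256 of 14152 genes. Under OGD 0 of the 50 did, beside 253 of 14185 genes. In no gene were the genotype groups free of overlap, where 0.325% of all genes were in normoxia and 0.345% under OGD. The estimates lay between -0.52 and 0.28 in normoxia and between -0.16 and 0.28 under OGD, with standard errors of 0.12 to 0.22 and of 0.13 to 0.23. A p that misses the threshold does not show that the genotypes were alike. Within batch 3 cultures 0 of 50 genes were called in either comparison. With limma's library weights, whose estimation stopped before convergence, 2 were called lower in N_KO and 24 higher in OGD_KO. Ube2c was among the 2 called lower in N_KO, at -0.65 (SE 0.123, adjusted p = 0.00448). Of all genes, those fits called 419 higher and 507 lower of 14152 in normoxia. Under OGD they called 2567 (18.1%) higher and 2190 lower of 14185.

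The interaction of genotype and treatment, the difference between the OGD changes of KO and WT, was called for 0 of 50 genes and for 0 of 13688 genes (0%, limma with the culture as a block), with 100 genes and 1 of the 50 at an unadjusted p under 0.05. The interaction was fitted with library totals as size, so it need not equal the difference of the changes given above. Its estimates lay between -0.22 and 0.66 with standard errors of 0.22 to 0.34. The highest was that of Ube2c, 0.66 (SE 0.29, unadjusted p = 0.0307, adjusted p = 1), with an interval of 2 standard errors from 0.08 to 1.25. In the table that compares the normoxic groups Ube2c was at 1.88, 1.31, 1.76, 2.21 and 1.47 in N_WT and 1.5, 1.38, 0.96, 1.28 and 0.93 in N_KO. The groups overlapped, with 2 N_WT libraries below the highest N_KO library, and the difference of KO from WT was -0.52 (SE 0.20, adjusted p = 1, exact permutation p = 0.0476). Under OGD the difference of Ube2c was 0.11 (SE 0.17, adjusted p = 1).

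**Figure D4:**
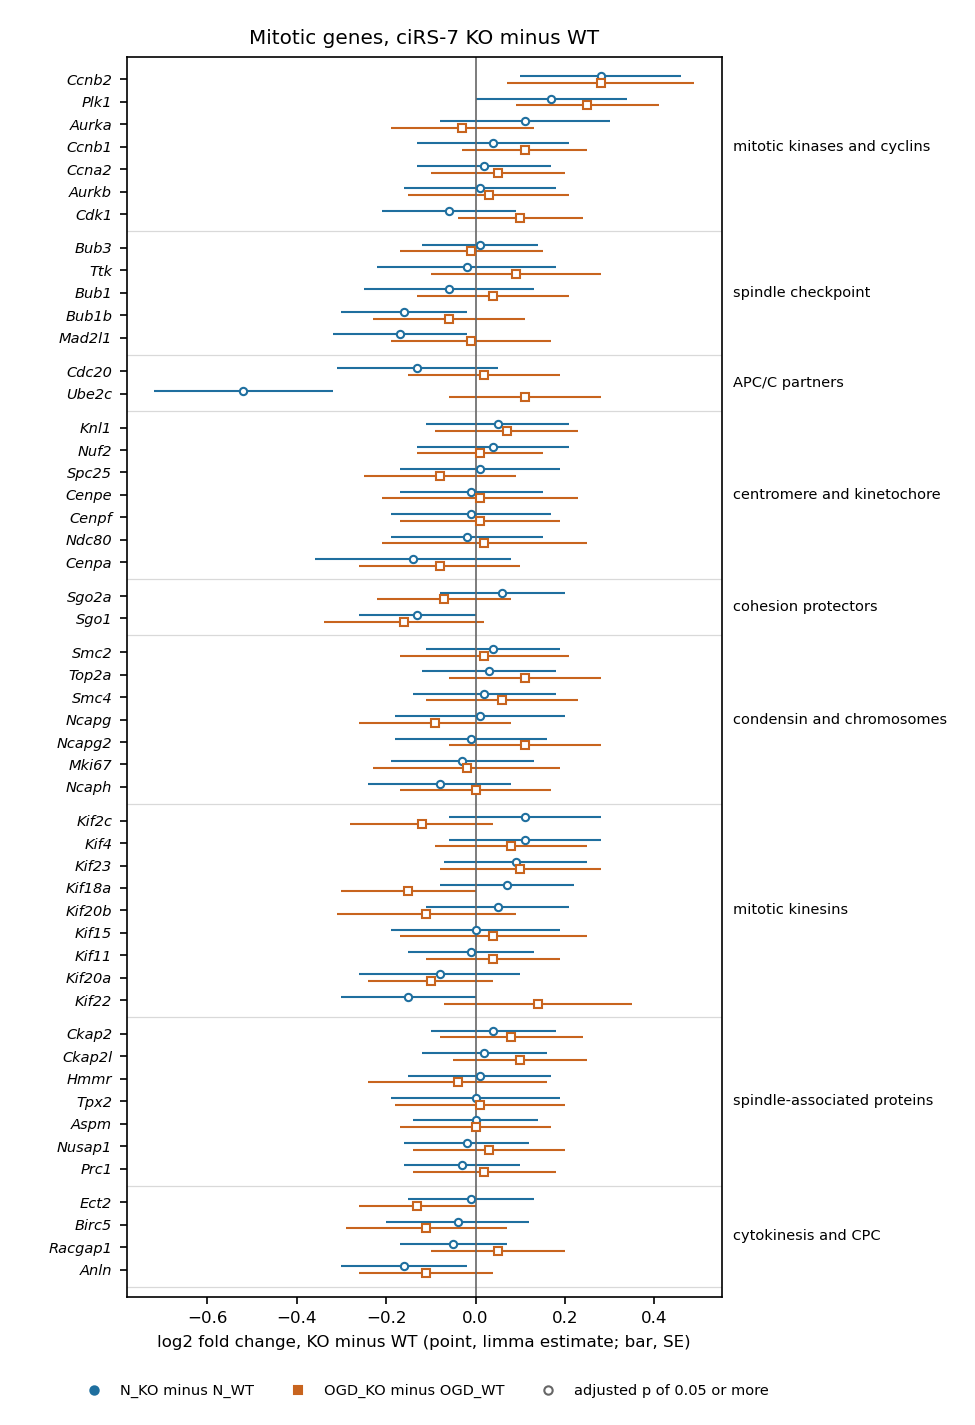
Log2 fold change of KO against WT for each of the 50 genes, grouped by role, in normoxia (circles) and under OGD (squares). Points are limma estimates, bars are standard errors, and all points are open because no adjusted p was under 0.05. The estimates lie around 0, and Ube2c in normoxia, at -0.52, is farthest from it.

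Other genes of the cell cycle were followed through 4 lists, whose counts are to be read beside the 21.6% of all genes that rose and 22.8% that fell in WT, and the 21.0% and 19.9% in KO. Of 65 other mitotic genes 40 rose and 1 fell in WT, and 42 rose and 2 fell in KO, with medians of 0.61 and 0.74. Fam83d, which recruits casein kinase 1 to the spindle, changed most in WT, by 1.71 (SE 0.20, adjusted p = 6.99e-07), and by 1.71 (SE 0.19, adjusted p = 2.12e-06) in KO. Kif18b, a partner of Kif2c in microtubule depolymerisation, rose by 1.47 (SE 0.18, adjusted p = 1.65e-06) in WT and 1.32 (SE 0.17, adjusted p = 1.12e-05) in KO, and Depdc1a by 1.42 (SE 0.16, adjusted p = 6.07e-07) and 1.34 (SE 0.16, adjusted p = 3.37e-06). Mad1l1, which anchors Mad2 at kinetochores, fell in WT, at -0.68 (SE 0.16, adjusted p = 0.00134), and stood at -0.37 (SE 0.16, adjusted p = 0.0645) in KO, and its WT call was lost in replicates 2, 4 and 5 alone. In KO the fall of Mad1l1 passed the test with each library centred on its median gene (adjusted p = 0.0436).

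Of 22 transcription regulators of the cell cycle 7 rose and 2 fell in WT, and 9 rose and 0 fell in KO, with medians of 0.26 and 0.29, beside 21.6% of all genes that rose in WT and 21.0% in KO. Foxm1, an activator of late cell cycle genes, rose by 1.28 (SE 0.21, adjusted p = 4.59e-05) in WT and 1.36 (SE 0.15, adjusted p = 1.57e-06) in KO. E2f5 rose by 1.03 (SE 0.14, adjusted p = 9.01e-06) and 0.91 (SE 0.16, adjusted p = 0.000167), and Lin37, a MuvB subunit, by 0.80 (SE 0.18, adjusted p = 0.00117) and 0.60 (SE 0.17, adjusted p = 0.00971). E2f3, an activator of S phase genes, fell in WT, at -0.72 (SE 0.15, adjusted p = 0.000509), and was at -0.60 (SE 0.24, adjusted p = 0.0547) in KO. Nfyb, a subunit of the factor that binds CCAAT boxes, fell in WT, at -0.43 (SE 0.14, adjusted p = 0.0169), and was at -0.34 (SE 0.14, adjusted p = 0.0659) in KO. The WT calls of E2f3, Nfyb and Lin37 were lost in replicates 2, 4 and 5 alone, as was the KO call of Lin37, and those of Nfyb in WT and Lin37 in KO also without replicate 3. With library totals as size the KO call of Lin37 was lost too. The WT call of Nfyb was also lost with batch as a covariate (adjusted p = 0.0541) and in batch 3 cultures (adjusted p = 0.108). In KO the falls of E2f3 and Nfyb passed the test with each library centred on its median gene (adjusted p = 0.0421 and 0.0481). That of E2f3 also passed with batch as a covariate (adjusted p = 0.0407).

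Among 14 listed genes of the G1 cyclins, their kinases and inhibitors, 6 rose and 3 fell in WT and 5 rose and 2 fell in KO, with medians of 0.34 and 0.27. The E cyclins drive entry into S phase. Ccne1 was called lower under OGD, at -1.03 (SE 0.18, adjusted p = 8.0e-05) in WT and -0.75 (SE 0.21, adjusted p = 0.00688) in KO, and Ccne2 at -0.88 (SE 0.19, adjusted p = 0.00102) and -0.63 (SE 0.22, adjusted p = 0.0252). In KO the call of Ccne2 was lost with the culture as a block (adjusted p = 0.0776) and without OGD_KO replicate 4 (adjusted p = 0.0669), N_KO replicate 4 (adjusted p = 0.0836) or N_KO replicate 5 (adjusted p = 0.0703). With limma's library weights Ccne2 in KO turned to 0.08 (adjusted p = 0.554) and Ccne1 in KO stood at -0.20 (adjusted p = 0.18). Cdkn1b, the CDK inhibitor p27, rose by 0.84 (SE 0.15, adjusted p = 9.17e-05) and 0.86 (SE 0.16, adjusted p = 0.000307), and Cdk6 by 0.62 (SE 0.16, adjusted p = 0.00329) and 0.55 (SE 0.15, adjusted p = 0.00798). Ccnd3 rose in WT by 0.54 (SE 0.18, adjusted p = 0.0176) and was at 0.40 (SE 0.19, adjusted p = 0.0959) in KO, and the inhibitor Cdkn2d fell in WT, at -0.46 (SE 0.17, adjusted p = 0.0294), and was at -0.23 (SE 0.17, adjusted p = 0.289) in KO. Cdk6 in both genotypes, Cdkn1b in KO and Ccnd3 and Cdkn2d in WT lost their calls in replicates 2, 4 and 5 alone, and Cdk6 and Ccnd3 also with library totals as size. Without replicate 3 the calls of Cdk6 in KO and of Ccnd3 and Cdkn2d in WT were lost too (adjusted p = 0.0714, 0.0817 and 0.119). The WT call of Cdkn2d was also lost with batch as a covariate (adjusted p = 0.0547) and in batch 3 cultures (adjusted p = 0.112). Leaving out OGD_WT replicate 1, 3 or 5 or N_WT replicate 2 or 3 ended it as well (adjusted p of 0.0569 to 0.0784). Of 40 DNA replication genes 13 rose and 1 fell in WT and 16 rose and 0 fell in KO, with medians of 0.16 and 0.32; the shares of all genes that rose were 21.6% and 21.0%. Mcm3, of the replicative helicase, rose by 0.79 (SE 0.14, adjusted p = 0.000148) in WT and 0.95 (SE 0.14, adjusted p = 3.98e-05) in KO, Pola1 by 0.76 (SE 0.16, adjusted p = 0.000554) and 0.86 (SE 0.16, adjusted p = 0.000307), and Rrm1 by 0.69 (SE 0.15, adjusted p = 0.000752) and 0.69 (SE 0.15, adjusted p = 0.00144). Tk1, thymidine kinase, fell in WT, at -0.68 (SE 0.20, adjusted p = 0.0102), and was at -0.04 (SE 0.20, adjusted p = 0.902) in KO, where it turned to 0.50 with library weights. The WT calls of Mcm3, Pola1 and Rrm1 and the KO call of Rrm1 were lost in replicates 2, 4 and 5 alone. The differences between lists were not tested.

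**Figure D5:**
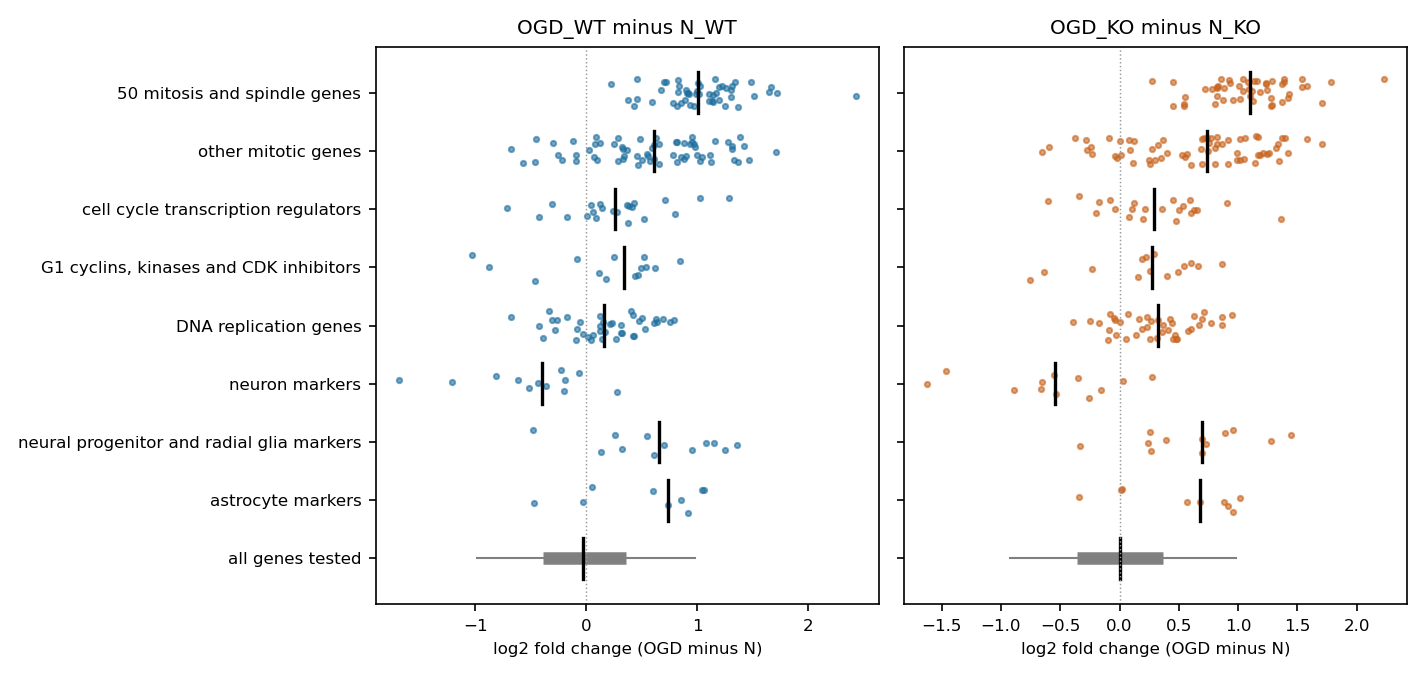
Log2 fold changes of OGD against N for the 50 genes, the 4 other cell cycle lists and 3 marker lists, 1 point per gene, in WT (left) and KO (right). Black lines are medians, and the grey bar and line give the middle 50% and 90% of all genes tested. The median of the 50 genes is 1.01 in WT and 1.10 in KO, that of the DNA replication genes 0.16 and 0.32, and that of the neuron markers -0.40 and -0.55.

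Markers of other cell types were examined in the same comparisons, in which 21.6% of all genes rose and 22.8% fell in WT and 21.0% and 19.9% in KO. All 12 neuron markers were listed, and 0 rose and 5 fell in WT and 0 rose and 6 fell in KO; their summed level was 6379 to 7765 CPM in N_WT, 4060.1 to 7019.7 in OGD_WT, 6780.4 to 7022 in N_KO and 4266 to 5772 in OGD_KO. Of 12 markers of neural progenitors and radial glia, the dividing cells of the embryonic cortex, 7 rose and 1 fell in WT and 7 rose and 0 fell in KO. Their summed level was 2362 to 3293 CPM in N_WT and 4818 to 5238 in OGD_WT, and 2371 to 3012 in N_KO and 3729 to 5597 in OGD_KO, without overlap in either genotype. Of 11 astrocyte markers 9 were listed, and 6 rose and 1 fell in WT and 5 rose and 0 fell in KO, with summed levels of 728 to 959 CPM in N_WT, 1057 to 1278 in OGD_WT, 555 to 1141 in N_KO and 729.5 to 1427 in OGD_KO. Of the oligodendrocyte lineage 8 of 10 markers were listed, and 1 rose and 2 fell in WT and 3 rose and 0 fell in KO. Of fibroblast and meningeal markers 3 of 8 were listed in WT and 5 of 8 in KO, with 0 past the test, and 0 of 11 microglia markers were listed. The 2 of 9 endothelial and mural markers listed were Kdr, at 0.60 (SE 0.22, adjusted p = 0.0311) in WT and 1.11 (SE 0.22, adjusted p = 0.000478) in KO, and Pdgfrb, at -0.66 (SE 0.20, adjusted p = 0.00984) and -0.30 (SE 0.24, adjusted p = 0.324). Neuron markers were thus present beside progenitor and glial RNA, and the part of these cells in the rise of the mitotic genes was not tested.

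For 10 of the 50 genes over 10% of transcript or exon sequence was shared with another gene of GENCODE mouse release 21, so their values are uncertain where reads could be split or, if strand was not used, merged. The library kit marks strand, per the labels' protocols, but whether counting used it is not given in the sources used here. Sgo2a shared 34.0% of its 50-base words with Kctd18 on the opposite strand and with Sgo2b, Kif20a 25.2% with Cdc23, and Ccnb1 23.4% with Ccnb1-ps and Gm12856. Ube2c shared 16% with Tnnc2 and others, Kif4 14.5%, Ncapg 11.8%, Ccna2 11.4%, Cdc20 10.6% and Plk1 10.4%, and 11.1% of the exon bases of Prc1 were overlapped. Kctd18 fell under OGD while Sgo2a rose, with log2 fold changes of -0.65 (SE 0.15, adjusted p = 0.00159) in WT and -0.63 (SE 0.18, adjusted p = 0.00953) in KO, and Cdc23 was at -0.16 (adjusted p = 0.396) and -0.13 (adjusted p = 0.538). Lcorl, which overlaps Ncapg, was at 0.52 (SE 0.17, adjusted p = 0.0139) in WT and 0.35 (SE 0.16, adjusted p = 0.0944) in KO. Of the other 40 genes 37 rose in WT and 38 in KO, with medians of 0.96 and 1.04. Kif18a shared 1.26% of its words with other genes.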

How the data were processed

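RNA from 20 libraries was analysed, 5 in each of 4 groups. The authors deposited 4 tables, 1 for each pair of groups, with log2 CPM per gene and library; the build is mm10, per the submitters' processing notes, and the aligner and the counting are not given in the sources used here. Within each group the deposited log2 values of a gene's lowest and highest library were pulled towards their neighbour (weights 0.6 and 0.4). This was inferred from the values: undoing it turned 45.5% to 92.8% whole reads into 99.91% to 99.99% (tolerance 0.05 reads, up to 500 reads). Whether the values had been adjusted for batch before deposit is not given in the sources used here.

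Pairs of groups were compared within the table that holds them, using limma 3.58.1 (R 4.3.3; lmFit and eBayes with trend, two-sided), with Benjamini-Hochberg adjustment over all genes of the table and a call at an adjusted p under 0.05. The interaction used recovered reads of all 20 libraries, with library totals as size (prior count 2) and the culture as a random block. Single values were tested by exact permutation, whose smallest p for 5 against 5 is 0.00794. The series text calls the 5 libraries of a group biological replicates. N and OGD libraries of 1 number share the culture and batch labels, which is where the pairing comes from; deviations of same-numbered libraries from their group means had correlations of -0.64 to 0.06 in WT and -0.79 to -0.07 in KO, so the data show no positive pairing. The fits were tested on simulated data.

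The 50 genes and all lists were chosen with earlier results of these data known. Values in every library are given for the 2 genes of each role with the highest mean level and for the 3 with the largest and smallest change in each genotype; for the other cell cycle lists, up to 3 called genes per direction are named. Promoters are RefSeq windows of GRCm38.p6, and transcript lengths and shared 50-base words come from GENCODE mouse release 21. Alternatives were the deposited values, a culture block, batch as a covariate, batch 3 alone, a filter at a mean log2 CPM of 1, library totals with prior counts 0.5 and 2, centring, library weights, no trend and leaving out each library. Added after seeing the data were the fits without replicate 3, with replicates 2, 4 and 5 alone, and a centred interaction.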

Additional observations from a re-analysis of the deposited data

Results flagged for a closer look

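In 5 of 100 groups examined, those of the 24 genes given in every library and of the mean of the 50 genes, 1 library stood far from the other 4; chance gives about 1 in 20. Bub3 had its highest OGD_WT value in replicate 2, at 5.36 log2 CPM, with the next library at 4.86. The N_KO library of replicate 2 stood highest for Ccna2 at 5.47, with the next at 4.98, for Ccnb1 at 4.47, with the next at 3.77, and for Bub1b at 4.39, with the next at 3.79. Ndc80 had its lowest OGD_KO value in replicate 5, at 2.62, with the next library at 3.68, and without that library its rise in KO passed the test (limma). The calls of Bub3, Ccna2, Ccnb1 and Bub1b did not change when the named library was left out.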

How the results depend on the processing

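The direction of the 50 genes under OGD was above 0 in all settings run except for Ndc80, whose log2 fold change was -0.05 in WT and -0.01 in KO with library totals (both prior counts), and -0.07 in KO in batch 3 cultures or replicates 2, 4 and 5 alone. Leaving out 1 library at a time gave 46 to 48 called genes in WT and 48 to 49 in KO, and 0 to 0 in both genotype comparisons and the interaction. The share of all genes called higher was then 17.9% to 22.7% in WT and 17.5% to 21.2% in KO. With the culture as a replicate block, 46 of 50 were called in WT (Ncaph lost) and 48 in KO, and 0 between genotypes. Of all genes, 19.5% were then called higher in WT and 17.3% in KO. The block also ended the call of Ccne2 in KO and changed no other treatment call of a named gene. Batch 3 cultures alone gave 46 and 35 called genes in WT and KO, where 16.8% and 8.28% of all genes were called higher. Batch as a covariate gave 46 and 47 (18.6% and 17.6% of all genes). The deposited, clipped values gave 49 and 49 (28.2% and 28.6%), and library weights 50 and 50 (41.8% and 37.6%). The weights also called 2 of the 50 genes in N_KO against N_WT, beside 926 of 14152 genes. In OGD_KO against OGD_WT they called 24, beside 4757 of 14185 genes. The weight estimation stopped before convergence, with weights from 0.214 to 50.2 and the highest always in replicate 3; the cause was not tested. Ccne2 in KO was at 0.08 with library weights. Tk1 in KO was at 0.50 with library weights, and from -0.14 to 0.13 when 1 library was left out (0.01 without OGD_KO replicate 1 or 2, 0.13 without N_KO replicate 4). Over the 50 genes and the named genes of the other cell cycle lists, 1518 values were compared with the main fit in each genotype. Of these, 1454 in WT and 1417 in KO kept direction and side of the threshold. In KO, batch 3 cultures and replicates 2, 4 and 5 are the same libraries, and that fit entered the count under both names. Depth limits most the genes with fewest reads, such as Ube2c and Ccnb2 in normoxia, at 12 to 53 reads per library.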
